A study of Mus musculus with 4 samples.

Results

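The oligodendrocyte lineage genes examined here are Olig1, Olig2, Cspg4, Cnp, Mbp, Cldn11, Mag, Mog and Mobp. They were followed across primary astrocyte cultures of CD-1 mice, an outbred stock, dissected at postnatal day 3. The cultures came from the subventricular zone (SVZ), the ventral mesencephalon (VM), the olfactory bulb (OB) and the hippocampus, 4 regions in all. All probe sets whose platform annotation names 1 of these 9 genes and no other gene were taken, which gave 21 of the 22690 probe sets on the array. No probe set named a member beside another gene. Each region was measured on 1 Affymetrix array, so no difference below has a replicate check and no test was made. All 4 cultures were untreated and of the same stock and age. Tissue was pooled across littermates, and the series' own text gives both 4 and 3 as the number of pups. Adherent cells were shaken at 200 rpm for more than 2 hours to enrich astroglia, replated, and kept as monolayers in medium with 10% serum. RNA was taken from the whole monolayer, so fewer cells of a type and less RNA per cell cannot be told apart.

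Oligodendrocytes make the myelin of the central nervous system. Their progenitors carry the basic helix-loop-helix transcription factors Olig1 and Olig2, the receptor Pdgfra and the membrane proteoglycan NG2, which Cspg4 encodes. Maturing cells then switch on Cnp, Mbp, Cldn11 and Mag, and later Mog and Mobp. In astrocyte cultures, shaking is a usual step to detach progenitors from the astrocyte layer. Several of these genes are also used outside the lineage: Olig2 and Olig1 in some astrocytes and in neural progenitors, Cspg4 in pericytes, and Cldn11 in the arachnoid barrier of the meninges.

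Signals are the deposited linear intensities and are compared only between regions for the same probe set. A floor of 122.1, the median of all signals, stood in for detection calls. Values below it were raised to it before log2 was taken, so a fold against such a value is a lower bound. The 4 arrays had a 2% trimmed mean between 400.1 and 400.2. The hippocampus array had a median signal of 136.8, and the other arrays had medians between 115.6 and 117.5. A probe set was called higher or lower in a region at 2-fold or more from the nearest other region. The 2 brightest probe sets of the same gene scattered by 0.16 on the log2 scale per array (median-based SD over 1972 genes). Only genes with both of these above the floor on all 4 arrays were used, so signals under the floor are not covered. On that scatter, 2 SDs of a difference between a pair of arrays come to 0.46, or 1.38-fold. This scatter is that of the measurement, and the spread between cultures is unknown.

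Promoter sequences of Olig2, Cnp and Cldn11 are shown because these genes had 3 different region profiles. They are the 250 bases before the RefSeq start site in GRCm38.p6, all on the plus strand, and run 5′ to 3′. Capitals mark the E-box CANNTG, the class of site that Olig proteins bind, and the letters ACAATG or ACAAAG, which resemble sites of Sox factors. Both strands were searched for all of them. Over the same 250 bases, 66.2% of 32851 promoters hold CANNTG, 10.7% hold ACAATG and 16.5% hold ACAAAG.
Olig2, chr16:91225300-91225549: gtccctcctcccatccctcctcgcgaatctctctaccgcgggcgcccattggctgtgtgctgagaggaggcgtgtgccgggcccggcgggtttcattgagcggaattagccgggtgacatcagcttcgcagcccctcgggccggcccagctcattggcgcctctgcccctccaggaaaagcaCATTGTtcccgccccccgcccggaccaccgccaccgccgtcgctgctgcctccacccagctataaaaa
Cnp, chr11:100574689-100574938: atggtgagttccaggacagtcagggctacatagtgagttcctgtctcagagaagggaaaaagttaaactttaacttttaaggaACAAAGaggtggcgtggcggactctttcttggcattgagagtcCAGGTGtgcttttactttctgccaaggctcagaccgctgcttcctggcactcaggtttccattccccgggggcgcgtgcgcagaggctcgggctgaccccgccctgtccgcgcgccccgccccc
Cldn11, chr3:31149670-31149919: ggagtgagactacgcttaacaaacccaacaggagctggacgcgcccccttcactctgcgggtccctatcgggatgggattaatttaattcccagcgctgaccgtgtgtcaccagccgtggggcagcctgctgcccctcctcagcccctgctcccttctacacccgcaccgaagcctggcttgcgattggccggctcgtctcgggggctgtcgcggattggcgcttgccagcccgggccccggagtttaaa
The Olig2 window holds 1 match to ACAATG, on the minus strand and starting 68 bases before the start site. The Cnp window holds 1 ACAAAG on the plus strand, 167 bases before the start, and 1 E-box, 124 bases before it. The Cldn11 window holds none of these letters, which says nothing of any factor's binding. All 3 windows are richer in G and C than the median promoter, with 66.8%, 57.2% and 63.6% for Olig2, Cnp and Cldn11 against 52.4%.

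Of the 21 probe sets, 7 passed the floor in some culture, against 12084 of the 20380 probe sets with 1 gene symbol. The 7 belong to Olig1, Olig2, Cnp, Mbp and Cldn11. The other 14 lay below the floor on all 4 arrays, which leaves Cspg4, Mag, Mog and Mobp with no value above it. By region, 7 of the 21 were above the floor in the hippocampus and 5 in each other culture. Over all probe sets on the array the share was 52.2% in the hippocampus and 49.1% to 49.4% in the other cultures. A 2-fold span between the highest and the lowest array was seen for 5 of the 21 probe sets, against 17.8% of the 20380 probe sets with 1 gene symbol. For probe sets that passed the floor somewhere the background was 29.9%. The 5 were the 3 probe sets of Cnp, which measure the same RNA, and those of Olig1 and Cldn11. No member was called higher or lower in the SVZ or the VM, or lower in the hippocampus, where 0.692% and 0.604%, 0.868% and 0.368%, and 0.294% of all single-gene probe sets were called. The members showed 3 patterns: Olig1 and Olig2 highest in the SVZ and hippocampus, Cnp highest in the hippocampus, and Cldn11 highest in the OB.

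**Figure D1:**
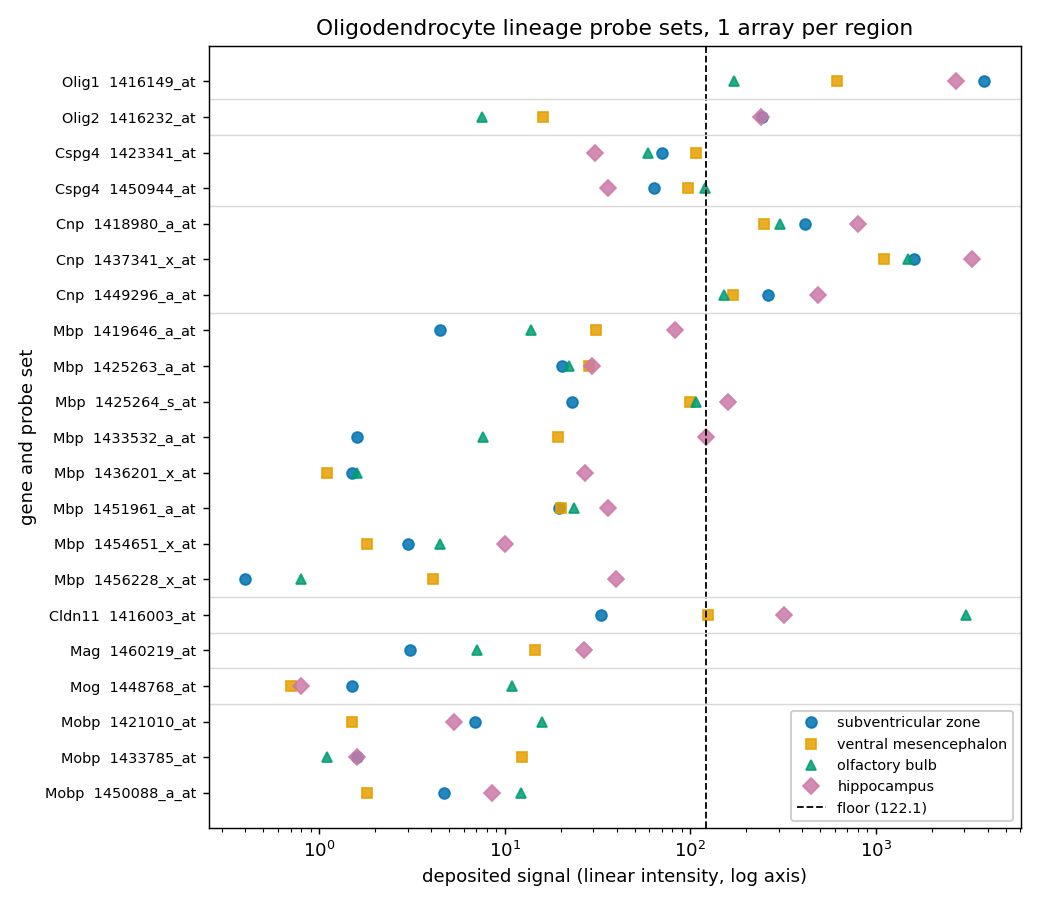
Deposited signal of each of the 21 probe sets (horizontal axis, linear intensity drawn on a log axis) with 1 point per region; the dashed line is the floor of 122.1. The Olig1, Cnp and Cldn11 rows reach far to the right of it, while all points of Cspg4, Mag, Mog and Mobp stay left of the line.

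Olig1, which supports oligodendrocyte maturation and myelin repair, had the second widest span of the members at the floor used here. Its probe set read 3805 in the SVZ, 2700 in the hippocampus, 620.7 in the VM and 171.1 in the OB. All 4 values lay above the floor. The SVZ was 1.41-fold above the hippocampus, little more than the probe-set scatter of 1.38-fold, so the order of these 2 cultures is weakly held. Both stood well apart from the rest: the SVZ was 6.13-fold above the VM and 22.2-fold above the OB, and the hippocampus was 4.35-fold and 15.8-fold above them. The OB was the 1 region called apart, at 171.1 against 620.7 in the VM, 3.63-fold lower. It was the only member probe set called lower in the OB, where 0.878% of all single-gene probe sets were called. Among all genes 1.1% had both the SVZ and the hippocampus 2-fold or more above both other cultures, or 1.7% of those above the floor, and Olig1 was such a gene. With the floor at the 70th percentile of all signals the call in the OB was lost. The 2 high cultures kept each other from being called: without the hippocampus array the SVZ was called higher at 6.13-fold, and without the SVZ array the hippocampus at 4.35-fold. Without the OB array the VM was called lower. The span of 4.47 on the log2 scale was wider than that of 99.5% of the 12084 single-gene probe sets above the floor.

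Olig2, the factor required for the oligodendrocyte lineage to form at all, followed the same split at a signal close to the floor. It read 243.9 in the SVZ and 241.0 in the hippocampus, against 16 in the VM and 7.5 in the OB. The 2 high cultures differed by 1.01-fold, which is within the scatter, and the 2 low ones were both below the floor and have no order. The SVZ was at least 1.998-fold and the hippocampus at least 1.974-fold above either of them, just short of the 2-fold rule. The size of this bound is set by the floor: at the 30th percentile of all signals it came to at least 9.68-fold for the SVZ over the VM. At the 70th percentile all 4 values were at the floor and no difference remained. Olig1 and Olig2 lie close together on chromosome 16.

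**Figure D2:**
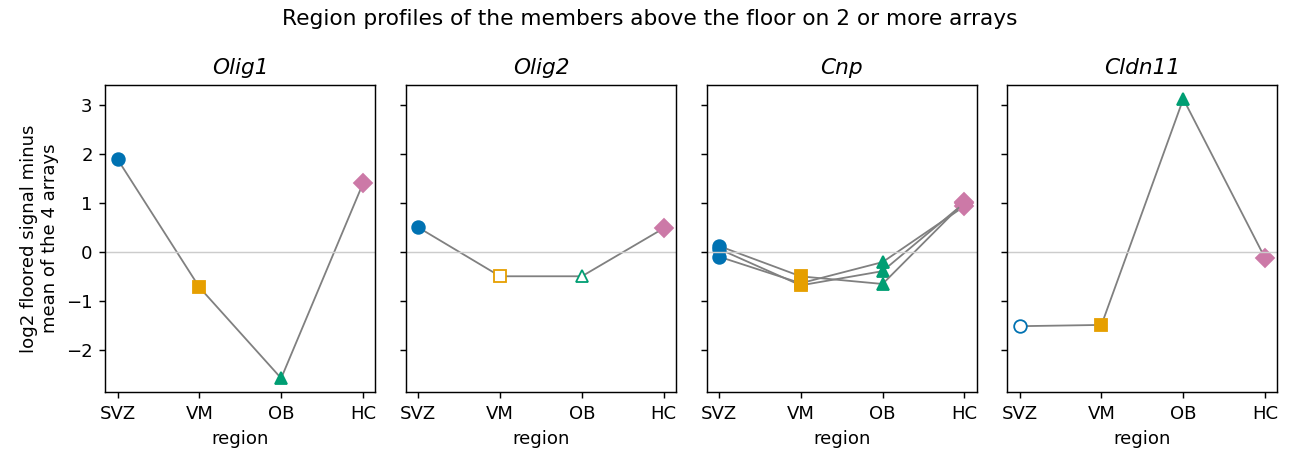
Log2 signal after the floor, minus the mean of the 4 arrays, for each probe set of Olig1, Olig2, Cnp and Cldn11 (HC is the hippocampus); open symbols are values at the floor. Olig1 and Olig2 are high at both ends of the axis, the 3 Cnp lines are highest in the hippocampus, and Cldn11 peaks in the OB.

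Genes that resembled Olig1 most were searched among the 7986 other genes that passed the floor in some culture, by the Euclidean distance of their centred log2 profiles over the 4 arrays. The nearest was Metrn, which encodes the secreted glial factor meteorin, at a distance of 0.44. Metrn read 4350 in the SVZ, 2985 in the hippocampus, 715.1 in the VM and 276.2 in the OB. Prom1, which encodes the stem cell surface protein prominin-1, followed at 0.57 and the receptor-like gene Fgfrl1 at 0.92. Prom1 read 1624 in the SVZ and 1744 in the hippocampus, against 333.1 in the VM and 110.9 in the OB. With 4 points per profile, such likeness is a description only.

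Cspg4, the NG2 proteoglycan of oligodendrocyte progenitors and pericytes, was below the floor in every culture on both of its probe sets. The first read 69.9, 107.4, 59.4 and 30.6 in the SVZ, VM, OB and hippocampus, and the second 63.3, 96.8, 119.2 and 36.1 in the same order. The highest array differed between the 2 probe sets, and values under the floor have no order. The 2 cultures high in Olig1 thus had no Cspg4 signal above the floor. Nor was there any in cultures where 5 to 7 of 10 pericyte and mural markers were above it, among them Pdgfrb at 765.6 to 2438. Kcnj8, Abcc9 and Des, 3 of these 10 markers, were below the floor on every array.

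Cnp, which encodes a phosphodiesterase of non-compact myelin made early in maturation, was highest in the hippocampus on all 3 of its probe sets. The brightest read 3286 in the hippocampus, against 1608 in the SVZ, 1489 in the OB and 1104 in the VM. The next read 800.5 in the hippocampus, against 416.7, 304.3 and 248.8 in the SVZ, OB and VM. The third read 487.1 in the hippocampus, against 261.0 in the SVZ, 152.4 in the OB and 169.7 in the VM. All 12 values were above the floor, and no other region reached the hippocampus on any probe set.

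Over the 3 Cnp probe sets the hippocampus was 1.87-fold to 2.04-fold above the SVZ, 2.21-fold to 3.20-fold above the OB and 2.87-fold to 3.22-fold above the VM. The SVZ was next on all 3, by 1.08-fold to 1.71-fold over the OB, which on 2 of the 3 was within the scatter. The OB and the VM changed places between probe sets, at 1.11-fold to 1.35-fold apart, within the scatter. Relative to the mean of the 4 arrays the hippocampus stood at 0.99 ± 0.05 on the log2 scale (SD over 3 probe sets of the same RNA, which are not replicate cultures). Only the brightest probe set passed the 2-fold rule, where 1.32% of all single-gene probe sets were called higher in the hippocampus. By its _x_at name that probe set holds probes that can match other transcripts, while the other 2 carry names for transcripts of 1 gene. With a fold of 1.5, or without the SVZ array, all 3 were called. The genes most like the brightest Cnp probe set were Tnfaip8 at a distance of 0.11, Syngr1 at 0.12 and Stard4 at 0.15.

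Mbp encodes myelin basic protein, which compacts the myelin membrane, and its locus also gives golli transcripts outside oligodendrocytes. It had 8 probe sets, and only 1 was above the floor on any array. That probe set read 159.0 in the hippocampus, against 107.2 in the OB, 100 in the VM and 22.9 in the SVZ. The hippocampus was therefore at least 1.30-fold above the others. The floor sets the size of this bound, so it cannot be placed within or beyond the probe-set scatter. With the floor at the 30th percentile of all signals, the hippocampus stood 0.57 above the next region on the log2 scale. By its _s_at name this probe set can match transcripts of more than 1 gene. The 7 other Mbp probe sets had deposited signals between 0.4 and 121.2, all below the floor. All 8 had their highest deposited signal on the hippocampus array. This is recorded without reading an order, since the signals are under the floor, the probe sets share 1 RNA, and the hippocampus array was also the highest for 30.1% of all 8296 single-gene probe sets below the floor.

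Cldn11, a tight junction protein of the myelin sheath and of the arachnoid barrier, had the widest span of all members at the floor used here, 4.64 on the log2 scale. The order turned with the floor at the 70th percentile, where Cldn11 spanned 3.08 and Olig1 3.40, and without the OB array, where they spanned 1.39 and 2.62. Cldn11 read 3052 in the OB, against 319.8 in the hippocampus, 124.3 in the VM and 33.0 in the SVZ. The OB was 9.54-fold above the hippocampus, 24.5-fold above the VM and at least 25.0-fold above the SVZ. The hippocampus was next, 2.57-fold above the VM, whose own value was barely over the floor. The VM and the SVZ could not be ordered at this floor. This was the only member probe set called higher in the OB, where the background was 1.06%, and its span exceeded that of 99.6% of single-gene probe sets above the floor. Without the hippocampus array the OB stood 24.5-fold above the next region, and without the OB array the hippocampus was itself called higher at 2.57-fold. Without the VM array the SVZ was called lower, at least 2.62-fold below the hippocampus. Olig1, by contrast, had its lowest value in the OB.

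Genes nearest to Cldn11 lay farther off than those of Olig1 and Cnp. They were the astrocyte connexin gene Gjb6 at a distance of 1.16, the chloride channel accessory gene Clca3a2 at 1.17 and the secreted Wnt modulator Sfrp4 at 1.21. Gjb6 read 1313 in the OB and 147.7 in the hippocampus, with 11.8 in the VM and 13.6 in the SVZ. Sfrp4 read 6384 in the OB, against 118.3 to 292.2 elsewhere.

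Mag, Mog and Mobp were not seen above the floor in any culture. Mag, an adhesion protein of the innermost myelin layer, read 26.8 in the hippocampus, 14.6 in the VM, 7.1 in the OB and 3.1 in the SVZ. Mog, a surface protein of the outermost myelin layer, read 11 in the OB and 0.7 to 1.5 in the other cultures. Mobp, a protein of compact myelin, had 3 probe sets with signals between 1.1 and 15.8. All of these lie far under the floor, so no region can be called higher. Without detection calls they are not shown to be absent.

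Other genes of the lineage were taken from 6 lists, of which 58 genes were named on the array and 36 passed the floor in some culture. Of the 58, 8 were called higher in 1 region and 2 lower, or 13.8% and 3.45%, against 4.64% and 2.33% of all 12393 genes. Among the genes that passed the floor the shares were 22.2% and 5.56% in the lists, against 7.2% and 3.62% of all such genes. With the probe sets of a gene averaged, 4 of the 58 were higher and 3 lower, or 6.90% and 5.17%, against 3.75% and 1.65% of all genes.

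Among 9 transcription factors of the lineage 5 were above the floor, and 2 were called higher and none lower. Sox10, which drives myelin gene expression in oligodendrocytes and also marks Schwann and olfactory ensheathing cells, read 355.4 in the OB, against 78.2, 31.6 and 10.4 in the VM, hippocampus and SVZ. It was at least 2.91-fold higher in the OB by this probe set, and 1.48-fold by the mean of its 3 probe sets. A second Sox10 probe set read 136.5 there and at most 44.2 elsewhere, and the third was under the floor throughout. Sox10 was thus below the floor in both cultures that were high in Olig1. Nkx6-2, a homeobox gene of ventral progenitors and oligodendrocytes, read 344.2 in the SVZ and 8.1 to 27.7 elsewhere, at least 2.82-fold higher. The list's median distance from the mean of the other 3 regions was 1.08 in the SVZ and -0.50 in each other region, against -0.06 to 0.01 over all genes above the floor. These medians rest on 5 genes, of which 3 were highest in the SVZ, 1 in the VM and 1 in the OB. The repeated -0.50 is the value of Nkx6-2, which was at the floor in each of those regions.

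Of 9 progenitor genes 7 were above the floor in the hippocampus, 5 in the SVZ, 4 in the OB and 3 in the VM. Of all 12393 genes 7317, 6905, 6929 and 6879 were above it in the same order. Of the 9 progenitor genes, 4 were called higher in a region. Pdgfra, the receptor through which platelet-derived growth factor drives progenitor division, read 431.6 in the hippocampus, 156.4 in the OB, 74.2 in the VM and 4.4 in the SVZ. The hippocampus was 2.76-fold above the OB on this probe set, while the other Pdgfra probe set was below the floor on all arrays and the mean of both gave 1.66-fold. Pdgfra was below the floor in the SVZ, where Olig1 was highest. The receptor phosphatase gene Ptprz1 read 2355 in the hippocampus, against 1013 in the SVZ, 301.2 in the OB and 167.9 in the VM, 2.33-fold above the next. The matrix proteoglycan gene Vcan read 622.1 in the VM and 91.9 to 260.7 elsewhere, 2.39-fold above the next by its brightest probe set and 1.66-fold by the mean of its 3. C1ql1, a secreted C1q-like protein, read 361.7 in the OB and 116.9 to 153.5 elsewhere, 2.36-fold above the next. The list's median was 1.21 in the hippocampus, 0.13 in the SVZ, -0.74 in the VM and -1.22 in the OB.

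Of 20 further myelin and mature oligodendrocyte genes 10 were above the floor, and only Aspa was called. Aspa, the enzyme that splits N-acetylaspartate, read 301.5 in the OB and 26.4 to 48.3 elsewhere, at least 2.47-fold higher in the OB. The medians of this list lay between -0.52 in the VM and 0.43 in the hippocampus. Of 7 myelin lipid genes 4 were above the floor and none was called; averaged over its probe sets, the desaturase gene Scd2 was 2.08-fold lower in the VM. The enzymes of the myelin galactolipids were all below the floor on every array, with Ugt8a at 0.9 to 17.9, Fa2h at 15.2 to 25.8 and Gal3st1 at 30.4 to 79.2.

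Myelin proteins such as Mag act on the axon through a receptor complex. The list for this complex also holds Rtn4, which encodes a ligand and not a receptor. Of its 5 genes 3 were above the floor, Rtn4 among them. The neurotrophin receptor gene Ngfr, which marks ensheathing and Schwann cells too, read 662.3 in the OB, against 157.9 in the VM, 13.5 in the SVZ and 9.8 in the hippocampus. It was 4.19-fold higher in the OB by this probe set, while its other 2 probe sets were below the floor on all arrays and the mean of the 3 gave 1.61-fold. Rtn4r and Lingo1, also of this list, did not pass the floor in any culture. The list's remaining genes passed it in every culture by their brightest probe sets, Rtn4 at 6243 to 7274 and Tnfrsf19 at 302.7 to 732.9. Of 8 regulators of differentiation 2 were called lower. Bmp4, a ligand that blocks oligodendrocyte differentiation, read 194.9 in the SVZ, against 416.7 in the hippocampus, 1752 in the VM and 1886 in the OB, 2.14-fold below the next. The 2 cultures with the highest Olig1 signals had the lowest Bmp4 signals, and any link between these genes was not tested. Hes1, a Notch target, did not follow that split. It read 129.7 in the hippocampus, against 466.2 in the OB, 659.7 in the SVZ and 702.1 in the VM, 3.59-fold below the next.

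**Figure D3:**
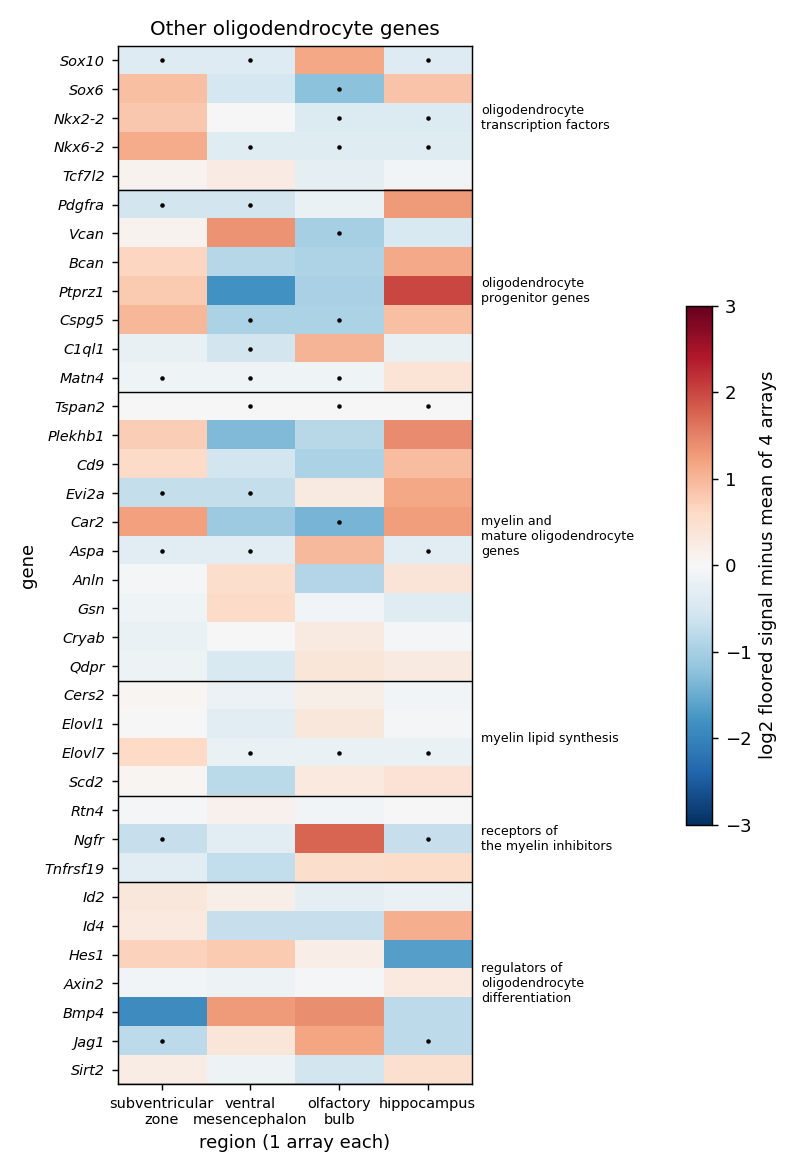
Log2 signal after the floor, minus the mean of the 4 arrays (colour), for the 36 genes of the 6 oligodendrocyte lists that passed the floor in some culture; columns are regions and black dots mark values at the floor. Sox10, Aspa and Ngfr are red only in the OB column, and Ptprz1 and Pdgfra are reddest in the hippocampus column.

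Markers of other cells also differed between the cultures. Meningeal and fibroblast markers had a summed signal of 64094 in the OB, where Cldn11 was highest, 44385 in the VM, 23476 in the hippocampus and 11586 in the SVZ. Of these 14 markers 13 were above the floor in the OB and the VM, 12 in the hippocampus and 7 in the SVZ. Of the 13 markers above the floor in some culture, 9 were highest in the OB, 2 in the VM, 1 in the SVZ and 1 in the hippocampus. The arachnoid and meningeal gene Ptgds was 6.49-fold higher in the OB and the meningeal factor Foxc2 5.49-fold. Dcn read 7039 in the OB and 6320 in the VM, and Col1a1 read 6994 and 7145 in the same cultures. Other markers peaked elsewhere: Lum was 2.83-fold higher in the VM, at 1047.6 against 127.5 in the OB, and Islr 2.17-fold higher in the SVZ, at 5941 against 2283 in the OB. Aldh1a2 was highest in the hippocampus, at 1206 against 618.4 in the OB. The part of these cells in the Cldn11 signal was not tested.

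Microglia and macrophage markers summed to 31650 in the hippocampus and 29921 in the OB, against 525.2 in the SVZ and 325.3 in the VM. Of the 12 markers, 12, 11, 2 and 0 were above the floor in these cultures, with Csf1r at 5099, 4073, 55.6 and 90.9. Their part in the Cnp and Mbp signals of the hippocampus was not tested.

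Astrocyte markers summed to 36163 in the hippocampus, 24687 in the SVZ, 24413 in the OB and 14698 in the VM. The defining marker Gfap was above the floor in all 4 cultures, at 10027, 3112, 3800 and 1007 in the same order, and the glutamate transporter gene Slc1a2 was below it in all 4, at 1.5 to 82.9. Between the SVZ and the OB the 11 markers above the floor went both ways, with 4 at least 2-fold higher in the SVZ, 3 at least 2-fold lower and 4 closer. Those higher in the SVZ, as Olig1 was, were Aldh1l1 at 5106 against 310.8 in the OB, Slc1a3 at 2533 against 706, Aqp4 at 4916 against 1575 and Sox9 at 1208 against 356.4. Gja1 was among those lower, at 2505 in the SVZ and 9010 in the OB. The 8 Schwann and olfactory ensheathing markers named on the array summed to 15974 in the SVZ, 9879 in the hippocampus, 6875 in the VM and 4990 in the OB. That sum is mostly Fabp7, also a radial glial gene, at 14077 in the SVZ, while 7 of the 8 were above the floor in the OB and 3 to 5 elsewhere. Neuron markers summed to 4682 in the SVZ and 565.5 to 1556 elsewhere. Stmn2 alone gave 3465 of the SVZ sum. Of the 4 neuron markers above the floor, 3 were highest in the SVZ and 1 in the OB. Besides Stmn2, those highest in the SVZ were Gad1 and Gap43. Gad1 read 670.6 there by its brighter probe set and 26.2 to 197.4 elsewhere, and Gap43 read 400 and 111.9 to 170.9. The other 6 of the 10 neuron markers, among them Dcx, Snap25 and Rbfox3, were below the floor on every array. Endothelial markers summed to at most 478.4. How far any of these cells contribute to the Olig1 and Olig2 signals was not tested.

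**Figure D4:**
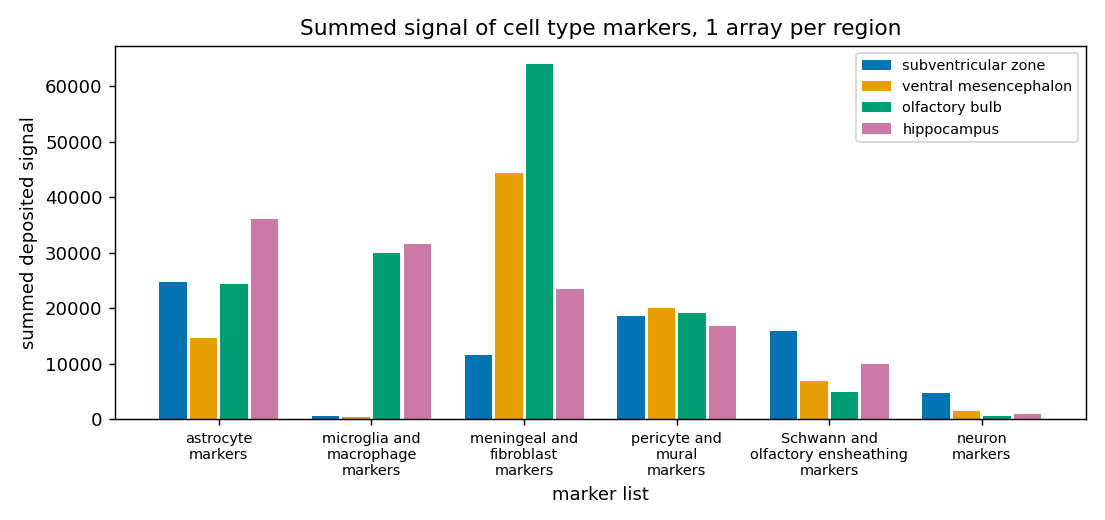
Summed deposited signal (vertical axis, linear, from 0) of 6 marker lists of other cell types, with 1 bar per region and no error bar, since there is 1 array each. Meningeal and fibroblast markers are highest in the OB at 64094, and microglial markers reach 31650 and 29921 in the hippocampus and OB but at most 525.2 in the other cultures.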

How the data were processed

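Biotinylated RNA made from 2 ug of total RNA was hybridised to 1 array per region. The deposited values are linear signal intensities, made with GCOS 1.4 per the submitters' processing notes; which algorithm and settings were used is not given in the sources used here, and detection calls are not used. The authors' intensities were used with no further scaling. Global scaling assumes that most transcripts are equal between cultures. Of the probe sets, 20380 had 1 gene symbol, of which 20351 had an identifier found in the RefSeq gene table, and 691 had several and were left out.

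For the gene lists, each gene was represented by its probe set of highest mean log2 signal. Named genes are the 9 members, up to 4 called genes of each list, 8 fixed markers and the 3 nearest profiles; others were named after their values were seen. Members and lists were chosen with earlier results of these data known. The calls were checked on simulated data. With 1 array per region, precision is limited by the number of arrays and no test was run. Python 3.11.15, numpy 2.4.6, pandas 2.3.3 and scipy 1.17.1 were used. Alternatives were other floors, folds and scalings, the mean of the other regions, and leaving out each array.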

Additional observations from a re-analysis of the deposited data

How the results depend on the processing

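Under quantile normalization and with each array centred, Olig1, Cnp and Cldn11 kept their highest region. The counts of called member probe sets were those reported, except that 6 in place of 5 spanned 2-fold under quantile normalization. There Olig2 passed at 1.03 on the log2 scale. For Olig2 the SVZ minus hippocampus difference was 0.16 under quantile normalization and -0.0045 with centring. Centring used the median of the probe sets above the floor and shifted the arrays by only -0.016 to 0.018 on the log2 scale. Such small shifts could hardly move a call. Centring on the median of all signals, which was highest on the hippocampus array, was not run. Counts moved with the floor, and so did those over all single-gene probe sets, whose shares follow each count in parentheses. With the floor at the 30th percentile 11 member probe sets spanned 2-fold (30.6%), 2 were lower in the SVZ (1.42%) and 3 higher in the hippocampus (2.68%). With none (log2 of signal plus 16) these counts were 14 (32.8%), 2 (1.49%) and 5 (2.52%). Apart from the brightest Cnp probe set, those higher in the hippocampus at both settings were Mbp probe sets under the main floor. These Mbp probe sets share the same RNA, and no order is read from them. With the floor at the 70th percentile 0 were lower in the OB (0.358%). At 1.5-fold 3 were higher in the hippocampus (3.46%), and at 3-fold 0 (0.358%). Against the mean of the other 3 regions 1 was higher in the SVZ (2.75%), 1 lower there (2.54%), 1 lower in the VM (2.32%) and 4 higher in the hippocampus (3.48%). Leaving out each array gave 2 to 5 probe sets spanning 2-fold (2 without the hippocampus array, 13.3%) and 1 to 4 higher in the hippocampus (4 without the SVZ array, 2.81%). It gave 0 to 1 higher in the SVZ (1 without the hippocampus array, 2.01%) and 0 to 1 lower there (1 without the VM array, 1.71%). Lower in the VM were 0 to 1 (1 without the SVZ array, 1.45%, and 1 without the OB array, 1.68%). With probe sets averaged per gene, 1 of 9 transcription factors and 2 of 9 progenitor genes were higher in a region. Also higher were 1 of 20 myelin, 2 of 12 astrocyte, 6 of 14 meningeal, 3 of 8 Schwann and 2 of 10 neuron genes. The count was 0 for the 7 myelin lipid genes, the 5 genes of the receptor list and the 8 regulators. It was also 0 for the 12 microglial, 10 pericyte and 7 endothelial genes. Over all genes the share called higher was 3.75%. Called lower were 1 of 7 myelin lipid genes, 2 of 8 regulators, 3 of 12 astrocyte, 9 of 14 meningeal, 1 of 8 Schwann and 1 of 10 neuron genes. The other lists had none called lower, and the share over all genes was 1.65%. The cause was not tested, other than by construction for floor and fold. No paired analysis was possible because each region has 1 array and no test was made. Signals near the floor limit Olig2 and Mbp most.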

Other observations

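After the values were seen, the genes of the 6 oligodendrocyte lists were searched for the Olig1 pattern, with the SVZ and the hippocampus both at least 2-fold above both other cultures. It held for 7 of the 58 genes named on the array, against 1.1% of all genes, and for 7 of the 36 above the floor, against 1.7%. The pattern is not particular to these lists: among 12 astrocyte markers it held for 2, Slc1a3 at 2533 and 4328 in the SVZ and hippocampus, against 641 and 706 in the VM and OB, and Aqp4 at 4916 and 3943, against 1956 and 1575. It held for none of the markers in the 6 lists of other cell types. The 7 were Car2, Cspg5, Ptprz1, Plekhb1, Bcan, Sox6 and Cd9. Car2, the carbonic anhydrase of oligodendrocytes and some astrocytes, read 750.4 in the SVZ and 765.7 in the hippocampus, against 150.8 in the VM and 83.7 in the OB. Cspg5, a neural proteoglycan, read 472.8 and 443.4 in the SVZ and hippocampus, against 63.2 and 101.1 in the VM and OB. Sox6, a transcription factor of progenitors, read 539.3 and 524.4 in the first pair, against 198.2 and 98.4 in the second. The lowest of the high pair over the highest of the low pair was 4.98-fold for Car2, at least 3.63-fold for Cspg5, 2.65-fold for Sox6 and 2.17-fold for Cd9. Several of these genes are also made by astrocytes. A floor at the 70th percentile left 4 genes, and a 3-fold rule 4. The comparison was chosen from these data and is a description with no test.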
